A study of Mus musculus with 12 samples.

Results

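Inflammatory cytokine and NF-kB genes were followed in skeletal muscle of C57Bl/6 mice on chow or on a high-fat diet. The list held 10 genes: secreted factors (Saa3, Tnf, Il6, Il1b, Ccl2 and Cxcl1), the receptor Tlr4, and subunits and an inhibitor of NF-kB, among them Rela and Nfkbia. A probe set, the group of array probes that reads a transcript, was taken as a member if its only gene symbol in the array's probe-to-gene table was a gene of the list. This gave 18 of 45098 probe sets, which read 9 of the 10 genes; for 1 listed gene the table gave no probe set, and that gene is not analysed here. Saa3, Tnf, Il6, Il1b, Ccl2 and Rela had 1 probe set each, Cxcl1 had 3, Tlr4 had 4 and Nfkbia had 5. Levels are compared between groups within a probe set, because probes bind with different strength. Between probe sets, mean signals serve only to place them against background and to sort them by brightness.

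The 12 Affymetrix arrays, each hybridised with biotin-labelled cRNA from total RNA, formed 3 groups of 4 labelled as experimental replicates. All mice ate standard chow, with 13% of its calories from fat, until the age of 6 weeks. The chow group stayed on it. The other groups were moved to a diet with 46% of its calories from fat, for 5 days or for 42 days. Both began at 6 weeks, so by the end of the diet the 42-day mice were older than the 5-day mice. Age and diet length cannot be told apart between these 2 groups. The labels do not say which muscle was taken, how old the chow mice were at sampling, or whether replicates were separate animals, so p-values measure only the spread between these samples. The 12 skeletal muscle markers, among them Acta1 and Ckm, were all above background. Of their 25 probe sets, 1 rose at 5 days (Myh1 1452465_at, 0.38) and 2 rose and 1 fell at 42 days (Myh1 1452465_at, 0.53; Myh4 1458368_at, 0.47; Ttn 1431928_at, -0.22). These were 4% and 12%, beside 3.59% and 10.6% of all probe sets tested.

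NF-kB is a family of transcription factors that Rela, the p65 subunit, represents here. In resting cells the inhibitor encoded by Nfkbia, IkB-alpha, holds the factor in the cytoplasm. Ligands of receptors such as Tlr4, the lipopolysaccharide receptor, and cytokines such as TNF and interleukin-1 beta activate the IkB kinase, which marks the inhibitor for breakdown and frees the factor. The freed factor switches on cytokine and chemokine genes and Nfkbia itself, which closes a negative feedback loop. In muscle of obese rodents this pathway has been studied as a link between fat-rich diets and insulin resistance.

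Promoters of the members were searched on both strands for a narrow form of the kappa B motif (GGGA, 2 bases of any kind, TTCC). The windows held 300 bases, from 250 bases before to 50 bases after the annotated gene start (RefSeq, GRCm38.p6). Other forms of the motif were not searched, so a window without a match can still hold a kappa B site. The form searched was found in 3 of the 7 members with a promoter entry (Cxcl1, Il6 and Nfkbia) and in 1.47% of all 32851 promoters. No match was found in the windows of Saa3, Tnf, Il1b and Rela; Ccl2 and Tlr4 were not searched. The last 100 bases before the gene start are shown for those 3 genes because they hold a secreted cytokine, a chemokine and the inhibitor side by side. They are written 5′ to 3′ on the strand of the gene, with the matching letters in capitals.
Cxcl1, chr5:90891145-90891244, plus strand: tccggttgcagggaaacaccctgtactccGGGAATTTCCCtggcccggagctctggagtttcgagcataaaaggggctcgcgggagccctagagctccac
Il6, chr5:30013014-30013113, plus strand: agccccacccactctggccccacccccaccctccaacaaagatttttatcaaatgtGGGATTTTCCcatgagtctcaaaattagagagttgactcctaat
Nfkbia, chr12:55492648-55492747, minus strand: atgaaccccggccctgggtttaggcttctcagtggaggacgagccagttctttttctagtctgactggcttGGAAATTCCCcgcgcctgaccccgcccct
The capitals begin 71 bases before the start in Cxcl1, 44 in Il6 and 29 in Nfkbia. In Cxcl1 matches on both strands overlap, in Il6 the match is on the strand shown, and in Nfkbia it is on the opposite strand. A match describes the letters and is no evidence of binding in these samples.

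Most of the secreted factors and the receptor lay near background. The files give no detection call, so background was taken from 80 probe sets of olfactory and vomeronasal receptors. These genes of the nose were assumed not to be transcribed in muscle, which was not tested and need not hold for each of them. The 95th percentile of their mean signals over the 12 arrays was 8.32 (log2), and their median was 6.59. Of the 18 member probe sets, 8 lay at or under that limit: those of Il6 (mean 4.73), Il1b (7.65) and Ccl2 (6.63), the Cxcl1 probe set 1419209_at (6.27) and all 4 of Tlr4 (5.29 to 7.43). Tnf (8.37) and Saa3 (8.60) were just above the limit and still below the brightest nose receptor, at 8.84. Clearly above it were Rela (10.60), the 5 Nfkbia probe sets (9.30 to 13.18) and the Cxcl1 probe sets 1441855_x_at (10.60) and 1457644_s_at (8.94). With the lower quartile of all probe sets, 6.50, as the limit, 4 member probe sets lay under it: Il6, Cxcl1 1419209_at and the Tlr4 probe sets 1430695_at and 1442827_at. Probes differ in binding strength, so a signal under the limit does not show that a transcript is absent.

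**Figure D1:**
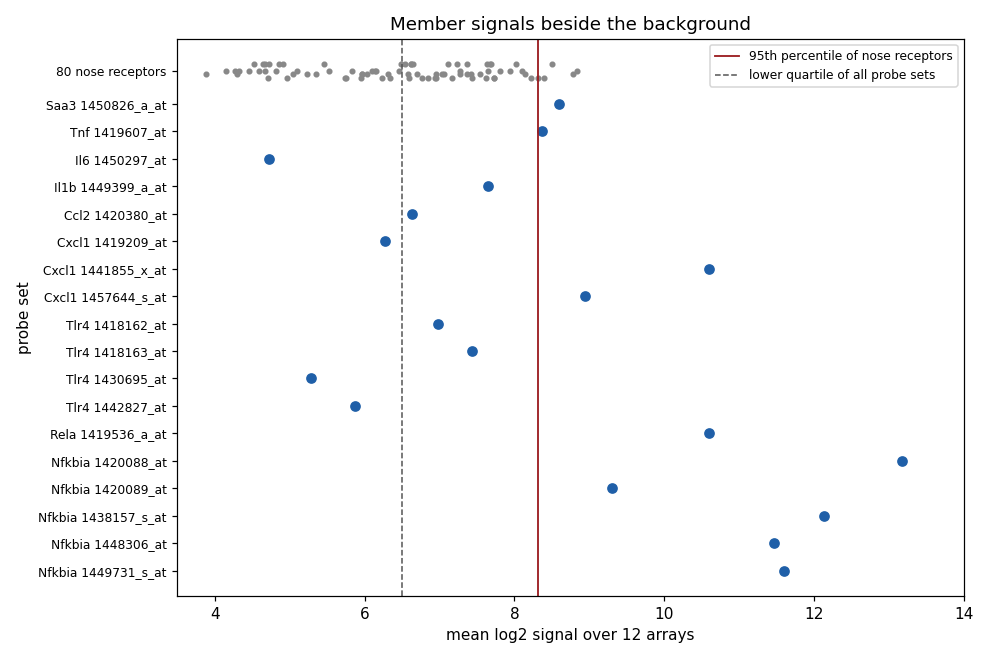
Mean log2 signal over 12 arrays (x axis) of the 18 member probe sets (blue points, 1 row each) and of 80 nose receptor probe sets (grey points, top row). The red line is the 95th percentile of the nose receptors (8.32) and the dashed line the lower quartile of all probe sets (6.50); 8 member probe sets lie left of the red line.

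Groups were compared with limma in a fit of all 34945 probe sets with a single gene symbol, with p-values adjusted over all of them; a call needed an adjusted p below 0.05. At 5 days 1 of the 18 member probe sets rose against chow and 0 fell, where 3.59% of all probe sets were called (1.94% higher and 1.65% lower). At 42 days 1 rose against chow and 0 fell, where 10.6% were called (5.86% higher and 4.7% lower). Between 42 and 5 days 0 members passed limma's test, where 7.8% of all probe sets did (2.97% higher and 4.84% lower). The members' shares were therefore near or below the background. At an unadjusted p under 0.05 there were 5, 3 and 5 members in these comparisons, beside 24.5%, 25% and 29.3% of all probe sets. The probe set that rose at both times was Tlr4 1418163_at. Its signal was under the background limit, where calls were rarer: 2.99% at 5 days and 6.93% at 42 days, against 4.44% and 15.7% above the limit (4.63% and 12.3% between 42 and 5 days). Both comparisons use the same chow arrays. Groups did not overlap in 2 of the 18 members at 5 days, 1 at 42 days and 2 between 42 and 5 days, beside 11.8%, 16.7% (8.27% lower) and 19.2% of all probe sets. The median log2 difference of the 18 member probe sets was 0.070 at 5 days and 0.060 at 42 days, beside -0.0075 and -0.0050 over all probe sets. The 5-day calls over all probe sets rest on single arrays: 1256 passed in all, but 10 without 5-day replicate 2, 14 without chow replicate 3 and 13 in a fit of only the 8 arrays compared. Centring each array on its median moved the share of 5-day calls that were higher from 54% to 87.8%, and of calls between 42 and 5 days from 38% to 10.1%.

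**Figure D2:**
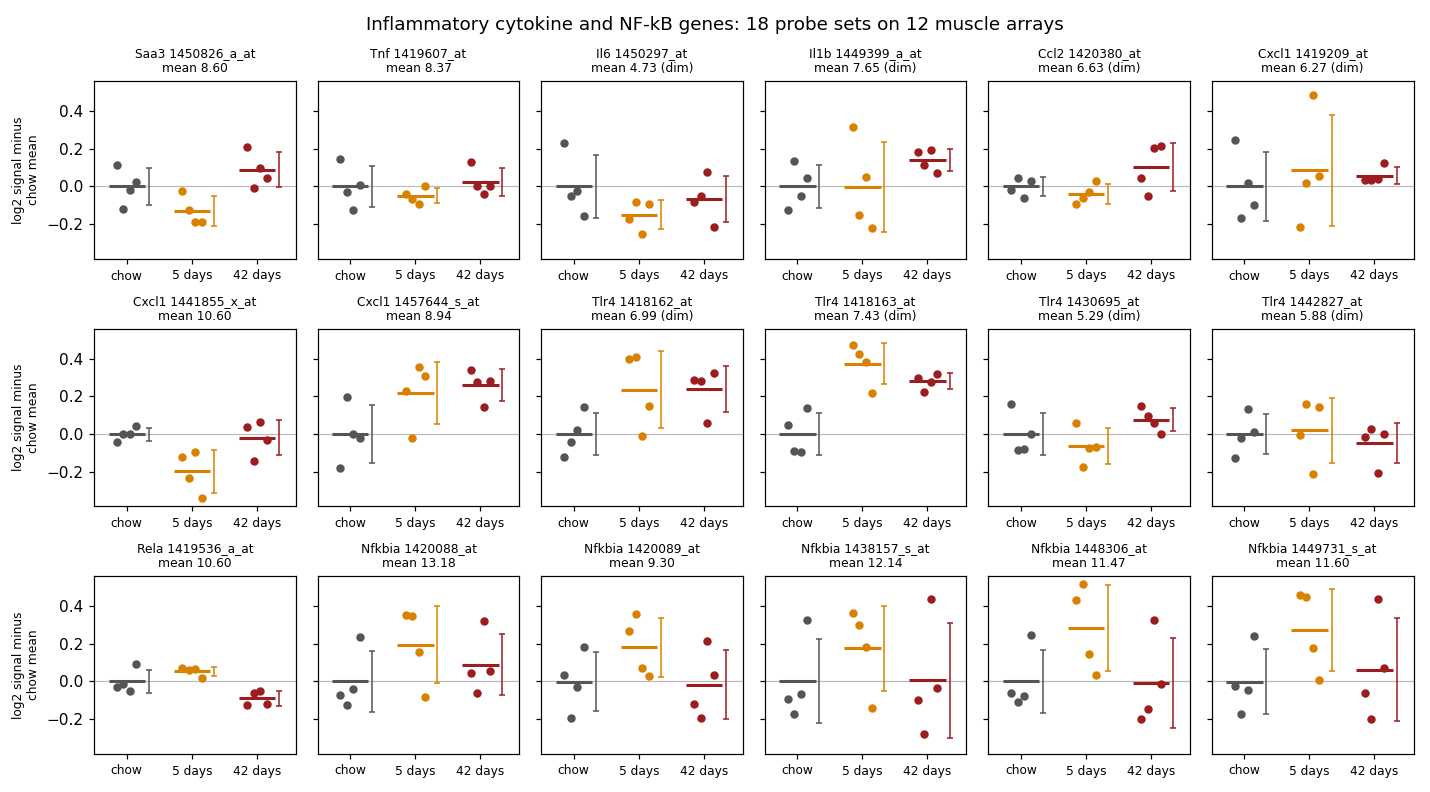
Log2 signal minus the mean of the chow arrays (y axis) for the 18 member probe sets (1 panel each, with the mean log2 signal over 12 arrays; "dim" marks a mean at or under 8.32) in the chow, 5-day and 42-day groups. Points are arrays, horizontal lines group means and bars ± SD (n = 4); in Tlr4 1418163_at all 8 high-fat arrays lie above all 4 chow arrays.

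Tumour necrosis factor and interleukin-1 beta are the cytokines that set off NF-kB through their own receptors. Tnf was 8.52, 8.35, 8.26 and 8.39 (log2 signal) on the chow arrays, 8.34, 8.31, 8.29 and 8.38 at 5 days, and 8.51, 8.38, 8.34 and 8.38 at 42 days. The groups overlapped throughout, and the highest values came from replicate 1 of chow and of 42 days. The log2 difference from chow was -0.050 ± 0.062 (± SE) at 5 days (95% interval -0.18 to 0.083, adjusted p = 0.65) and 0.024 ± 0.062 at 42 days (-0.11 to 0.16, adjusted p = 0.86). Il1b was 7.48, 7.74, 7.55 and 7.65 on chow, 7.92, 7.45, 7.65 and 7.38 at 5 days, and 7.78, 7.72, 7.80 and 7.67 at 42 days. The 5-day arrays spread widely around the chow level, and the 42-day arrays sat in the upper part of the chow range or above it. Neither difference passed limma's test (-0.0013 ± 0.096, adjusted p = 0.995, and 0.14 ± 0.096, adjusted p = 0.403).

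Interleukin-6, a cytokine that contracting muscle is also known to release, was read by 1 probe set far under the background limit. Il6 was 5.03, 4.75, 4.78 and 4.64 on chow, 4.63, 4.72, 4.55 and 4.71 at 5 days, and 4.72, 4.75, 4.88 and 4.58 at 42 days. Of the nose receptor probe sets, 16.2% were dimmer, and the groups overlapped. The log2 difference was -0.15 ± 0.082 at 5 days (95% interval -0.32 to 0.025, adjusted p = 0.275) and -0.067 ± 0.082 at 42 days (-0.24 to 0.11, adjusted p = 0.67).

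Ccl2 and Cxcl1 are chemokines that draw monocytes and neutrophils. Ccl2 was 6.59, 6.66, 6.55 and 6.64 on chow, 6.52, 6.55, 6.58 and 6.64 at 5 days, and 6.66, 6.56, 6.81 and 6.82 at 42 days. The 42-day replicates 3 and 4 stood above all other arrays, while replicates 1 and 2 of that group lay at the chow level. The log2 difference was -0.038 ± 0.064 at 5 days (adjusted p = 0.745) and 0.10 ± 0.064 at 42 days (adjusted p = 0.347). The 3 Cxcl1 probe sets gave different pictures. The dim probe set 1419209_at was 6.47, 6.05, 6.24 and 6.12 on chow, 6.00, 6.24, 6.71 and 6.27 at 5 days, and 6.25, 6.25, 6.26 and 6.34 at 42 days. It showed no separation of the groups, with log2 differences of 0.086 ± 0.12 and 0.057 ± 0.12.

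The bright Cxcl1 probe set 1441855_x_at was 10.63, 10.67, 10.68 and 10.71 (log2 signal) on chow, 10.55, 10.44, 10.58 and 10.33 at 5 days, and 10.71, 10.53, 10.74 and 10.64 at 42 days. All 5-day arrays lay below all chow arrays, as in 6.06% of all probe sets, but the log2 difference of -0.20 ± 0.064 did not pass limma's test (adjusted p = 0.0862). At 42 days it was at the chow level (-0.018 ± 0.064, adjusted p = 0.9). The probe set 1457644_s_at went the other way. It was 8.60, 8.98, 8.78 and 8.76 on chow, 9.01, 8.76, 9.14 and 9.09 at 5 days, and 9.12, 9.06, 8.92 and 9.06 at 42 days. Chow replicate 2, at 8.98, lay among the high-fat arrays, so the groups overlapped, and the log2 differences were 0.22 ± 0.088 at 5 days (adjusted p = 0.148) and 0.26 ± 0.088 at 42 days (adjusted p = 0.0745). In the array's naming, an x or s suffix marks probes that can also read other transcripts. Over the 12 arrays, Pearson's r between pairs of the 3 Cxcl1 probe sets ran from -0.185 to 0.0961, so they did not track a shared level.

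Saa3 encodes a serum amyloid A protein made outside the liver, mainly by macrophages and fat cells, and is a known NF-kB target. Its values were 8.73, 8.50, 8.60 and 8.64 (log2 signal) on chow, 8.59, 8.49, 8.43 and 8.43 at 5 days, and 8.83, 8.61, 8.71 and 8.66 at 42 days. All 42-day arrays lay above all 5-day arrays, as in 7.84% of all probe sets, and the chow arrays spanned the gap between them. Against chow the log2 differences were -0.13 ± 0.066 at 5 days (adjusted p = 0.236) and 0.088 ± 0.066 at 42 days (adjusted p = 0.447). The 42-day group was 0.22 ± 0.066 above the 5-day group, or 1.16-fold (adjusted p = 0.0541). With the brightest probe set of each gene as the only one tested, that adjusted p was 0.0487. The mean of 5 adipocyte markers ran from 9.67 to 10.73 on chow, 9.05 to 9.55 at 5 days and 8.97 to 9.94 at 42 days (log2 signal). Its group means were 10.01, 9.253 and 9.485, below chow at both times. The mean of Saa3 was below chow at 5 days as well and above it at 42 days, and its groups overlapped chow at both times. The 42-day replicate 1 was highest in Saa3 and lowest in the adipocyte mean. The mean of 12 macrophage markers ran from 9.06 to 9.24, 9.13 to 9.25 and 9.08 to 9.33. The part of these cells in the Saa3 signal was not tested.

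Tlr4, the receptor of the list, gave the only call. Its probe set 1418163_at was 7.26, 7.12, 7.12 and 7.35 (log2 signal) on chow, 7.68, 7.64, 7.59 and 7.43 at 5 days, and 7.51, 7.43, 7.49 and 7.53 at 42 days. Every high-fat array was above every chow array, as was the case for 5.72% of all probe sets at 5 days and 8.45% at 42 days; the nearest were chow replicate 4 and 5-day replicate 4. The probe set rose by 0.37 ± 0.067 at 5 days, or 1.30-fold (adjusted p = 0.025), and by 0.28 ± 0.067 at 42 days, or 1.21-fold (adjusted p = 0.0165). Between the high-fat groups it differed by -0.095 ± 0.067 (95% interval -0.24 to 0.049, adjusted p = 0.359). Its mean of 7.43 was brighter than 76.2% of the nose receptor probe sets and under the background limit. All probe sets of like brightness, from 7.02 to 7.49, had median log2 differences of -0.065 at 5 days and 0.0064 at 42 days.

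The other Tlr4 probe sets did not pass limma's test in any comparison. Probe set 1418162_at, which the probe table ties to the same sequence record as 1418163_at, was 6.70, 6.79, 6.85 and 6.97 on chow, 7.23, 7.24, 6.82 and 6.98 at 5 days, and 7.12, 7.11, 6.89 and 7.15 at 42 days. Its values leaned the same way, with 5-day replicate 3 and 42-day replicate 3 inside the chow range, and its log2 differences were 0.23 ± 0.094 (adjusted p = 0.145) and 0.24 ± 0.094 (adjusted p = 0.125). Probe sets 1430695_at (-0.064 ± 0.067 and 0.075 ± 0.067) and 1442827_at (0.020 ± 0.085 and -0.048 ± 0.085), lay at the chow level. The mean of the 4 Tlr4 probe sets was 0.14 above chow at both times and not past the test (adjusted p = 0.13 and 0.158). Without chow replicate 3 the call of 1418163_at ended at both times (adjusted p = 0.0526 and 0.0591), as it did at 5 days without 5-day replicate 2 (0.0795) and at 42 days without 42-day replicate 4 (0.0523); its log2 difference stayed between 0.25 and 0.43 in these and all other fits that left out an array.

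Tlr4 is also made by macrophages, endothelial cells and fat cells, and in whole muscle more cells of a type and more RNA per cell cannot be told apart. Of 17 macrophage probe sets 0 passed limma's test at 5 days (5 at an unadjusted p under 0.05). At 42 days 3 rose and 0 fell (17.6%, beside 10.6% of all probe sets). The rises were those of Lyz2 (0.35 ± 0.087), C1qb 1417063_at (0.43 ± 0.11) and the dim Cd68 probe set (0.22 ± 0.067). The brighter C1qb probe set 1437726_x_at was at -0.071 at 42 days (adjusted p = 0.725). Adgre1 1451161_a_at was at -0.23 at 5 days (adjusted p = 0.051) and -0.11 at 42 days (adjusted p = 0.306). Of 8 endothelial probe sets 2 rose at each time (25%, beside 3.59% and 10.6% of all probe sets), Vwf and Cldn5 at 5 days and Cdh5 (dim) and Pecam1 at 42 days. Cdh5 was at -0.015 at 5 days and Vwf at -0.002 at 42 days. The mean of the 7 endothelial markers ran from 9.02 to 9.16 on chow, 9.09 to 9.47 at 5 days and 9.07 to 9.22 at 42 days. Of 6 adipocyte probe sets 2 fell at 5 days (33.3%), those of Retn (-0.97 ± 0.21) and Cidec (-1.33 ± 0.34), and 1 fell at 42 days (16.7%), that of Retn (-0.69 ± 0.21). The part of these cells in the Tlr4 difference was not tested.

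**Figure D3:**
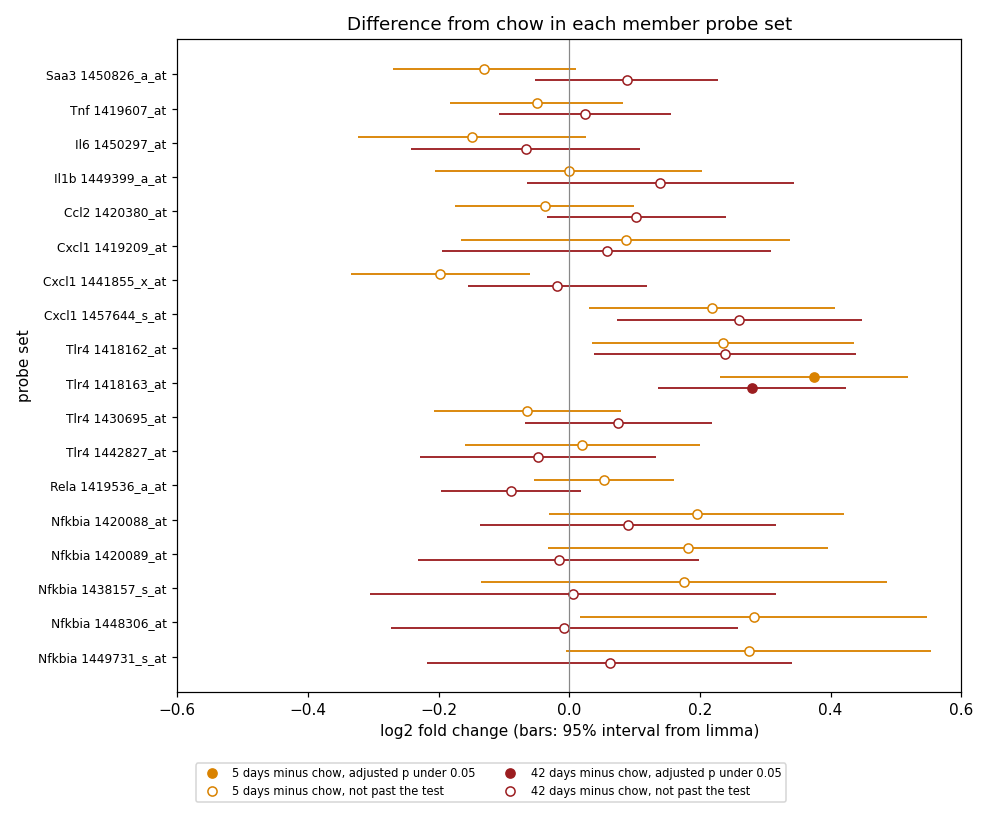
Log2 fold change against chow (x axis) of each member probe set at 5 days (orange) and 42 days (dark red), with 95% intervals from limma. Filled points are calls (adjusted p below 0.05); only Tlr4 1418163_at has them, at 0.37 and 0.28.

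Rela, the transactivating subunit, was well above background and moved within a narrow range. It was 10.59, 10.60, 10.57 and 10.71 (log2 signal) on chow, 10.69, 10.68, 10.68 and 10.63 at 5 days, and 10.49, 10.56, 10.57 and 10.50 at 42 days. All 42-day arrays lay below all 5-day arrays, as in 11.3% of all probe sets, with the chow arrays between and across them. The log2 difference from chow was 0.053 ± 0.050 at 5 days (95% interval -0.054 to 0.16, adjusted p = 0.537; -0.029 after quantile normalization) and -0.089 ± 0.050 at 42 days (-0.20 to 0.018, adjusted p = 0.293). The difference of 42 from 5 days was -0.14 ± 0.050 (adjusted p = 0.0846). Probe sets of like brightness, from 9.70 to 10.76, had a median of -0.11 in that comparison, close to the Rela value.

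Nfkbia, the inhibitor and feedback target, was above background in all 5 probe sets, and these varied together from array to array. Probe set 1448306_at was 11.32, 11.27, 11.30 and 11.63 (log2 signal) on chow, 11.81, 11.90, 11.53 and 11.42 at 5 days, and 11.18, 11.23, 11.71 and 11.37 at 42 days. Chow replicate 4, 5-day replicates 1 and 2 and 42-day replicate 3 gave the 4 highest values in each of the 5 probe sets. Pearson's r between pairs of the probe sets over the 12 arrays ran from 0.882 to 0.962, and from 0.894 to 0.972 after group means were taken off; these points share the array and the transcript.

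At 5 days all 5 Nfkbia probe sets were above chow, by 0.18 to 0.28 on the log2 scale, and at 42 days they were at -0.017 to 0.090. The largest 5-day difference was that of 1448306_at, 0.28 ± 0.12 or 1.22-fold (95% interval 0.017 to 0.55). None of the 5 passed limma's test at 5 days (adjusted p of 0.18 to 0.478, with 1 at an unadjusted p under 0.05) or at 42 days (0.657 to 0.989). The groups overlapped in every one of the 5, because chow replicate 4 lay above 5-day replicate 4 and 42-day replicate 3 lay among the high 5-day arrays. Probe sets of like brightness, over 10.76, had a median difference of 0.062 at 5 days.

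Other gene lists were read array by array beside the Nfkbia values. Immediate early genes respond within minutes to stress and handling as well as to growth signals. They rose at 5 days in 10 of 28 probe sets (35.7%, beside 3.59% of all probe sets), among them Fos (1.35 ± 0.24) and Btg2 (0.84 ± 0.13). The mean of the 16 measured was 10.17, 10.18 and 10.27 (log2 signal) in 5-day replicates 1 to 3 and 9.74 in replicate 4, against 9.55 to 9.70 on chow and 9.63 to 9.78 at 42 days. Replicate 4, low in that list, was also lowest of its group in Nfkbia. The match was not complete, since 42-day replicate 3 and chow replicate 4, high in Nfkbia, were at 9.78 and 9.65 in the immediate early mean. Chow replicate 4 also had the highest adipocyte marker mean, 10.73. The part of either in the Nfkbia values was not tested.

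**Figure D4:**
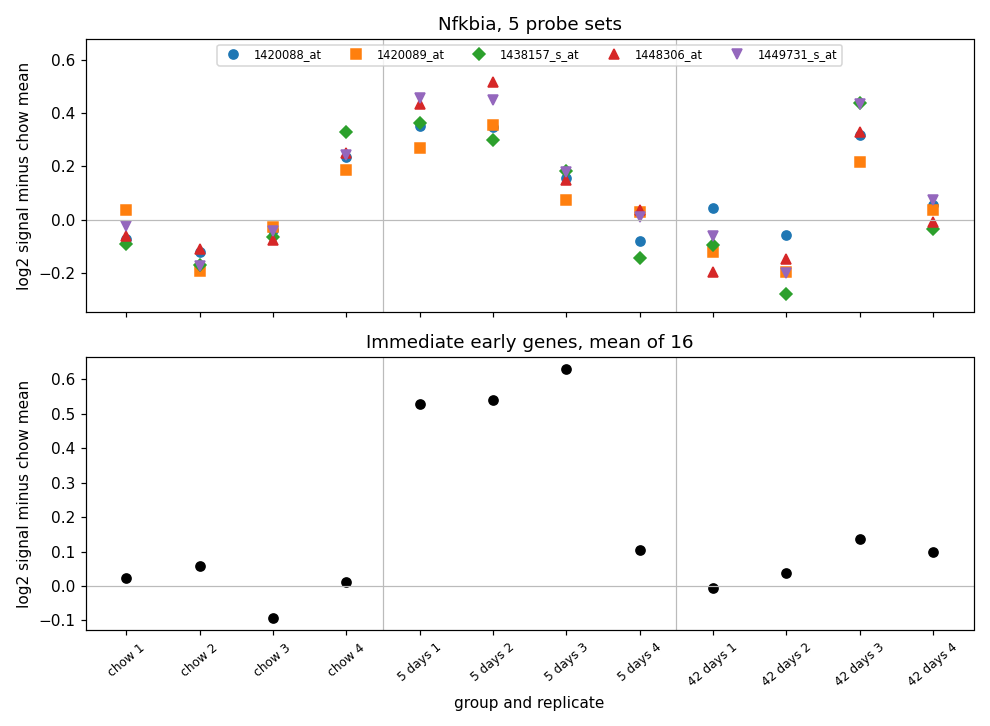
Upper panel: log2 signal minus the chow mean (y axis) of the 5 Nfkbia probe sets (symbols) on each of the 12 arrays (x axis, group and replicate). Lower panel: the same for the mean of 16 immediate early genes; the 5 Nfkbia symbols move together, with peaks in chow replicate 4, 5-day replicates 1 and 2 and 42-day replicate 3, while the immediate early mean peaks in 5-day replicates 1 to 3.

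Around the members, genes of the steps between receptor and NF-kB were compared list by list. Of the lists with calls at 5 days, the 18 probe sets named by the rule were refitted with each array left out, and all 18 lost the call without 5-day replicate 2 (adjusted p of 0.0795 to 0.134) and also without chow replicate 3 (0.0526 to 0.0934). Of the 31 named at 42 days, marker lists included, 13 lost it without 42-day replicate 4 and 12 without chow replicate 3. Of the 29 named between 42 and 5 days, 27 lost it without 42-day replicate 1 and 26 without 5-day replicate 2. At 42 days against chow, those of Ikbkg 1435647_at, Map3k7 1426627_at, Ikbkb 1454184_a_at, Irak3, Il6st 1460295_s_at, Adam17 and Apcs did not lose it without any 1 array. In the list of other NF-kB subunits and inhibitors, with Relb, Nfkb2 and Bcl3, 0 of 13 probe sets passed limma's test at either time (2 at an unadjusted p under 0.05 at 5 days and 0 at 42 days), beside 3.59% and 10.6% of all probe sets. Their median log2 difference was -0.018 at 5 days and 0.0015 at 42 days. The nearest to a call were the inhibitors Nfkbib (-0.23 ± 0.066, adjusted p = 0.0597) and Nfkbid (-0.26 ± 0.078, adjusted p = 0.0712) at 5 days, both dim.

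Of the 28 probe sets of the kinases that free NF-kB and their partners, 2 rose at 5 days (7.14%, beside 3.59% of all probe sets called) and 4 rose at 42 days (14.3%, beside 10.6%), and 0 fell at either time. Between 42 and 5 days 3 rose and 3 fell (21.4%, beside 7.8% of all probe sets). The shares against chow rest on 2 and 4 probe sets. Ikbkg encodes NEMO, the regulatory subunit of the IkB kinase. Its probe set 1435647_at was 8.24, 8.31, 8.24 and 8.32 (log2 signal) on chow, 8.39, 8.66, 8.52 and 8.61 at 5 days, and 8.90, 8.78, 8.76 and 8.94 at 42 days. The 3 groups did not overlap, and the rise was 0.27 ± 0.065 at 5 days (adjusted p = 0.0398) and 0.57 ± 0.065 at 42 days (1.48-fold, adjusted p = 0.000245). Of the other 5 Ikbkg probe sets 1450161_at rose at 42 days (0.26, adjusted p = 0.00315), and the brightest, 1454690_at, was at -0.089 (adjusted p = 0.435). For Map3k7, the kinase TAK1 upstream of the IkB kinase, the dim 1426627_at rose at 42 days (0.62 ± 0.096, adjusted p = 0.00134) and 1425795_a_at at 5 days (0.22 ± 0.056, adjusted p = 0.0481), while the other 4 probe sets passed at neither time. For Ikbkb, the catalytic subunit, the dim 1454184_a_at rose at 42 days (0.40 ± 0.085, adjusted p = 0.00776), and the brightest, 1432275_at, was at -0.050 (adjusted p = 0.734). Its probe set 1426207_at, above background, was at -0.16 against chow at 42 days (adjusted p = 0.213) and fell between 5 and 42 days (-0.33 ± 0.078, adjusted p = 0.0261). Tab2 and Tab3, partners of TAK1, also fell in that comparison, by 0.23 ± 0.058 in 1423462_at (adjusted p = 0.0317) and by 0.24 ± 0.059 in 1428762_at (adjusted p = 0.0275). These genes were therefore changed in some of their probe sets and not in others.

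Among negative regulators, 2 of 19 probe sets rose at 5 days (10.5%, beside 3.59% of all probe sets), and 1 rose and 2 fell at 42 days (15.8%, beside 10.6%). Between 42 and 5 days 0 rose and 4 fell (21.1%, beside 7.8%), 3 of them of Otud7b and 1 of Cyld, both deubiquitinases. Socs3, the suppressor of cytokine signalling that interleukin-6 induces, rose by 1.09 ± 0.28 at 5 days in the dim 1456212_x_at (2.13-fold, adjusted p = 0.0444). Its 5-day arrays read 7.69, 7.96, 9.21 and 7.74 (log2 signal) against 7.15, 7.47, 6.78 and 6.84 on chow, so replicate 3 was far above the rest of its group. The Socs3 probe set 1416576_at, which is also dim and carries no cross-reading suffix, was at 0.29 (adjusted p = 0.197). Tax1bp1, an adaptor of the A20 complex, rose by 0.21 ± 0.054 at 5 days and 0.18 ± 0.054 at 42 days in its brightest probe set, and the dim 1420175_at fell by 0.24 at 42 days. Otud7b fell by 0.26 ± 0.074 at 42 days in 1457716_at, which was lower at 42 than at 5 days by -0.44 ± 0.074 (adjusted p = 0.0138). The Cyld probe set 1429201_at differed by -0.23 ± 0.062 in that comparison (adjusted p = 0.0371). Tnfaip3, which encodes A20 itself, passed in neither of its probe sets.

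Of 21 probe sets of receptors and adaptors next to Tlr4, 0 passed limma's test at 5 days, with 6 at an unadjusted p under 0.05, and 3 rose and 1 fell at 42 days (19%, beside 10.6% of all probe sets). Between 42 and 5 days 1 passed, Traf6 1421377_at (0.35 ± 0.075, adjusted p = 0.0212), while Irak3 1430704_at (0.26, adjusted p = 0.0766) and Tirap 1418685_at (-0.16, adjusted p = 0.126) did not. Traf6, the ubiquitin ligase shared by Toll-like and interleukin-1 receptors, rose in 1421377_at (0.32 ± 0.075, adjusted p = 0.014) and in 1421376_at (0.30, adjusted p = 0.0159), both under the background limit, while its 2 probe sets above the limit, 1435350_at and 1446940_at, did not pass. Irak3, an inhibitory kinase of that route, rose in 1430704_at (0.41 ± 0.088, adjusted p = 0.00843), also dim, and the adaptor Tirap fell in 1418685_at (-0.22 ± 0.065, adjusted p = 0.0404). The co-receptor Cd14 was at -0.15 ± 0.055 at 5 days (adjusted p = 0.123).

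Cytokine receptors and antagonists had 28 probe sets, of which 1 rose at 5 days (3.57%) and 3 rose at 42 days (10.7%), shares near those of all probe sets (3.59% and 10.6%). Il6st, or gp130, the signalling subunit of the interleukin-6 receptor, held 3 of these 4 calls, while Il6 itself was under the background limit. Its probe set 1460295_s_at was 10.49, 10.42, 10.24 and 10.28 (log2 signal) on chow, 10.66, 10.72, 10.58 and 10.80 at 5 days, and 10.99, 10.97, 11.07 and 11.14 at 42 days. The 3 groups did not overlap, and the rise was 0.34 ± 0.069 at 5 days (1.26-fold, adjusted p = 0.0277) and 0.69 ± 0.069 at 42 days (1.61-fold, adjusted p = 0.000164). The Il6st probe set 1421239_at also rose at 42 days (0.86, adjusted p = 0.000704), but the brightest, 1452843_at, was at -0.086 (adjusted p = 0.417) and 1437303_at at -0.27 (adjusted p = 0.0709). Adam17, the protease that sheds TNF, rose at 42 days in the dim 1421857_at (0.48 ± 0.11, adjusted p = 0.0109) and not in its other 2 probe sets.

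Inflammasome genes, which process interleukin-1 beta, gave no call against chow. Of 7 probe sets 0 passed limma's test at either time, beside 3.59% and 10.6% of all probe sets. At an unadjusted p under 0.05 there were 2 at 5 days and 0 at 42 days. The closest were Nlrp3 (-0.22 ± 0.060, adjusted p = 0.0537) and Casp1 (-0.17 ± 0.056, adjusted p = 0.0845) at 5 days. Between 42 and 5 days 1 rose (14.3%, beside 7.8% of all probe sets), the dim Casp1 probe set (0.19 ± 0.056, adjusted p = 0.0492). Of 30 probe sets of other chemokines and NF-kB targets, 1 rose and 1 fell at 5 days (6.67%, beside 3.59% of all probe sets). At 42 days 1 rose (3.33%, beside 10.6%). Between 42 and 5 days 1 rose (3.33%, beside 7.8%), the dim Vcam1 probe set (0.31 ± 0.079, adjusted p = 0.0336). At 5 days the stress gene Gadd45b rose by 0.42 ± 0.11 (adjusted p = 0.0444) and the chemokine Ccl5, in a dim probe set, fell by 0.34 (± 0.073, adjusted p = 0.0318). Csf1, the macrophage growth factor, rose by 0.20 ± 0.058 (adjusted p = 0.0435) at 42 days.

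Acute phase genes included the relatives of Saa3. Of 12 probe sets 1 rose at 5 days (8.33%, beside 3.59% of all probe sets), that of Saa2 (0.60 ± 0.14, adjusted p = 0.0367). At 42 days 2 rose (16.7%, beside 10.6%), those of Saa4 (0.45 ± 0.11, adjusted p = 0.0162) and Apcs (0.27 ± 0.063, adjusted p = 0.0138). All 3 were under the background limit, the x suffix of the Saa2 probe set (1449326_x_at) marks possible reading of its close relatives, and the liver is their main source. Transcripts of liver were also higher at 42 days, when 15 of 16 probe sets of 8 liver genes rose. The mean of these liver genes ran from 8.95 to 10.22 (log2 signal) at 42 days, against 8.02 to 8.37 on chow and 7.73 to 9.32 at 5 days. At 5 days, when Saa2 rose, 0 of the 16 liver probe sets passed limma's test. Between 42 and 5 days 3 acute phase probe sets rose (25%, beside 7.8% of all probe sets) and 0 fell. Among them were Saa4 (0.60 ± 0.11, limma, adjusted p = 0.0151) and Apcs (0.32 ± 0.063, adjusted p = 0.0178), and 14 of the 16 liver probe sets rose as well. The part of liver RNA in the acute phase values was not tested.

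For likeness over the 12 arrays, Cxcl1 1441855_x_at was used as the member above background with the smallest p for any group difference. The closest of the 14541 probe sets above the limit were those of Aldoa, Pomt2 and Sae1, each with Pearson's r of 0.932. Nfkbia 1448306_at was added after its values were seen, and its closest were Sema4c (0.937), Rgmb (0.934) and Tbl1x (0.929). These points share arrays and normalization, and the coefficients are given as a description.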

How the data were processed

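The deposited table holds log2 RMA signals per probe set made by the authors; RMA is named in the submitters' processing notes without version, and the log2 scale follows from the values (3.67 to 15.46). Array medians ran from 7.59 to 7.70. Of 45098 probe sets, 61 controls, 932 with several symbols and 9160 without one were left out, and 34945 were tested; 34741 matched RefSeq by Entrez identifier and 0 symbols changed. The fit took 1 mean per group over the 12 arrays, in limma 3.58.1 under R 4.3.3 (9 residual and 6.06 prior degrees of freedom), two-sided, with Benjamini-Hochberg adjustment within each of 3 contrasts. Errors after ± are SE. There is no depth of reads here; precision depends on the number of arrays. In simulated data a log2 change of 0.25 was recovered in 12% (5 days) and 10% (42 days) of 50 changed probe sets, and one of 0.5 in 90% and 92%. Each simulated fit changed 50 probe sets at each size (0.25, 0.5, 1 and 2) among 34945, fewer than the data called. Fewer changes make the adjusted p stricter, so these shares do not give the recovery in the real fit.

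The members, lists, tests and alternatives were chosen with earlier results of these data known. Named genes were all members and, in each list and contrast, at most 4 called genes higher and 4 lower by smallest p, or at most 2 where none passed, with other probe sets of a named gene; of these the text names those nearest to the members. Cyclic loess was added after the data were seen. Replicate numbers were not used as pairs in the main fit. A correlation over 0.1 was found in 5 of 12 same-numbered pairs, and 5 of 12 arrays matched best with their own number. The replicate 1 pairs ran from 0.128 to 0.181, so a batch shared by some numbers is not excluded. The effect of each alternative is given in the closing section. One listed gene is not reported here.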

Additional observations from a re-analysis of the deposited data

Results flagged for a closer look

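In 54 groups of 4 arrays, 3 held an array that stood apart by Dixon's criterion; chance alone gives about 1 in 20. Cxcl1 1419209_at read 6.34 in 42-day replicate 4 against 6.25 to 6.26 in the rest of that group, a gap that is large only beside their near-equal values. Tlr4 1418162_at read 6.89 in 42-day replicate 3 against 7.11 to 7.15. Nfkbia 1448306_at read 11.63 in chow replicate 4 against 11.27 to 11.32. Rela did not pass the test in any comparison, but all its 5-day arrays lay above the chow mean of 10.62 and all 42-day arrays below it; the log2 difference of 42 from 5 days was -0.14 (limma, adjusted p = 0.0846); after quantile normalization the 5-day mean was below chow.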

How the results depend on the processing

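The number of probe sets past limma's test moved by over 1.5 times as follows. At 5 days, 1256 became 554 after quantile normalization, 560 after cyclic loess (chosen after seeing the data), 2870 with arrays centred on their medians, 692 with the brightest probe set of each gene, 696 when a gene's probe sets were averaged, 666 with array weights, 13 with only the 8 arrays compared and 3842 at an adjusted p under 0.1. At 42 days, 3690 became 1011, 908 and 5597 with the brightest probe set, the mean and the looser threshold. Between 42 and 5 days, 2727 became 1273 (quantile), 1247 (loess), 5191 (centred), 1550, 529 and 6166 in the same order. With 1 array left out the counts ran from 10 to 1464, 1976 to 4013 and 161 to 3217; the lowest were without 5-day replicate 2, chow replicate 3 and 5-day replicate 2. With the replicate number as a block they were 1401, 3670 and 2852, and the block changed no member's call except that of Saa3 between 42 and 5 days. The limit at the lower quartile left 4 of 8 members near background. The cause of these moves was not tested, beyond the smaller number of probe sets or arrays where the setting itself has fewer.

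Of the members' log2 differences, Tlr4 1418163_at lost its call with the mean of its gene's probe sets (0.14 at both times) and, at 5 days, with only the arrays compared (0.37); with 1 array left out it ran from 0.34 to 0.43 at 5 days and 0.25 to 0.32 at 42 days. Calls were gained by Saa3 for 42 against 5 days (0.22 with dim probe sets left out, the brightest probe set of each gene, a trended and robust prior, the block or the looser threshold; 0.18 to 0.25 with 1 array left out). For that comparison they were also gained by Cxcl1 1441855_x_at (0.28 after quantile normalization or loess; 0.18 without dim probe sets or at the looser threshold) and Rela (-0.21 when centred; -0.14 without dim probe sets or at the looser threshold). Against chow they were gained by Cxcl1 1441855_x_at at 5 days (-0.20, looser threshold) and 1457644_s_at at 42 days (0.26 without dim probe sets or at the looser threshold; 0.20 to 0.33 with 1 array left out).

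Among members, signs turned only in differences that did not pass the test. Those against chow at 5 days were Tnf (0.0093 centred), Il1b (0.059 quantile, 0.058 centred, 0.013 array weights, 0.063 loess), Ccl2 (0.021 quantile, 0.021 centred, 0.029 loess), Cxcl1 1441855_x_at (0.036 with the mean of probe sets) and Rela (-0.029 quantile, -0.016 loess). Those at 42 days were Cxcl1 1441855_x_at (0.00058 quantile, 0.10 mean, 0.015 loess) and Nfkbia 1420089_at (0.0053 loess), 1438157_s_at (-0.00025 centred) and 1448306_at (0.017 quantile, 0.024 loess). Those between 42 and 5 days were Cxcl1 1419209_at (0.018 array weights), 1457644_s_at (-0.023 centred) and Tlr4 1418162_at (-0.066 quantile, -0.062 centred, -0.044 array weights, -0.073 loess). With 1 array left out, signs turned at 5 days within -0.11 to 0.072 (Il1b), -0.048 to 0.19 (Cxcl1 1419209_at) and -0.026 to 0.098 (Tlr4 1442827_at). At 42 days the ranges were -0.017 to 0.072 (Tnf), -0.12 to 0.010 (Il6), -0.045 to 0.023 (Cxcl1 1441855_x_at), -0.090 to 0.0045 (Tlr4 1442827_at), and for Nfkbia -0.094 to 0.045 (1420089_at), -0.14 to 0.12 (1438157_s_at), -0.12 to 0.075 (1448306_at) and -0.063 to 0.15 (1449731_s_at). Between 42 and 5 days they were -0.13 to 0.10 (Cxcl1 1419209_at), -0.037 to 0.088 (1457644_s_at) and -0.080 to 0.063 (Tlr4 1418162_at). Tax1bp1 1448399_at, called at 42 days, turned to -0.057 with the mean of its gene's probe sets.

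With 4 arrays a group, changes of the size most members showed can be missed: the members' 95% intervals had a median width of 0.368 (log2). The simulated recovery of a log2 change of 0.25 was 12% at 5 days. That simulation held fewer changed probe sets than the data called, so its test was stricter than the real one.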
